A study of Mus musculus with 74 samples.

Results

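The apolipoprotein genes of mouse liver were followed through one RNA-seq table and 11 ChIP-seq tables from mice lacking a corepressor subunit or its nuclear receptor partner. The 10 members were Apoa1, Apoa2, Apoa4, Apoa5, Apob, Apoc1, Apoc2, Apoc3, Apoe and Apom, chosen by gene symbol. They made up 10 of the 14583 genes in the RNA table and gave their name to 677 of the 743949 regions in the ChIP tables. All samples were livers of C57BL/6 mice aged 8 to 12 weeks. The study's methods give its mice as male, and its text gives the RNA livers as from chow-fed mice. Count columns of the Gps2 histone libraries are named fed, and those of the other libraries name no feeding state. Gps2 LKO mice carried floxed Gps2 alleles with Cre under the albumin promoter, which acts in hepatocytes, and their WT littermates carried the floxed alleles without Cre. Ncor LKO and Smrt LKO mice lacked these corepressors in the liver, Ppara KO mice lacked PPARα in every tissue, and each line had its own WT group. The RNA comparison had 4 Gps2 WT and 4 Gps2 LKO libraries, and 12 of the 14 comparisons with WT had replicates. Each ChIP sample pooled several precipitations. The study's methods call its replicates biological, but the labels do not tie libraries to animals, so the p-values measure the spread between libraries.

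Apolipoproteins are the protein part of lipoprotein particles. ApoB is the scaffold of very low-density lipoprotein, ApoA-I and ApoA-II make up most of the protein of high-density lipoprotein, ApoE is a ligand for receptors that clear particles, and the small C apolipoproteins and ApoA-V tune lipoprotein lipase and uptake. ApoA-IV is made mainly by the intestine and, in mice, also by the liver. Several of these genes lie in tight clusters, and PPARα, a receptor activated by fatty acids, together with GPS2, NCOR and SMRT, subunits of a corepressor complex, is known to act on lipid genes in hepatocytes.

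The 8 RNA libraries held 13194385 to 20086127 reads in genes, and the 64 ChIP libraries held from 7.90 to 46.1 megatags. In the RNA data the row of the deleted gene, Gps2, was read at 16.4, 15.8, 16.7 and 15.1 CPM (reads scaled to library size by TMM) in WT and at 12.7, 9.86, 9.16 and 12.9 CPM in Gps2 LKO liver. That was a 0.690-fold level (edgeR adjusted p = 0.00210), counted over all exons of the gene and over all cell types of the liver. In the GPS2 ChIP of the same line, all 54 member regions had at least 2-fold fewer tags in LKO, where 99.6% of all regions in that table did. LKO replicate 2 stood apart among the RNA libraries, and gene length moved with genotype. With genes in 5 equal bins of exon length, the median log2 fold change was 0.26 in the bin of the shortest and -0.23 in that of the longest, so each member is also given with the length trend taken out. Marker genes moved too: 3 of 6 hepatocyte markers were higher in LKO (summed level 98440 to 102489 CPM in WT, 136535 to 161649 in LKO), as were 6 of 6 stellate cell markers (67.0 to 70.7 against 109 to 137 CPM), 5 of 6 macrophage markers (97.8 to 102 against 133 to 152 CPM), 3 of 5 cholangiocyte markers (64.4 to 68.7 against 91.1 to 112 CPM) and 1 of 5 endothelial markers (94.9 to 101 against 94.0 to 114 CPM). Only 2 of 6 intestinal markers, Fabp2 and Vil1, were in the table, at a summed 47.1 to 51.6 CPM in WT and 54.7 to 77.8 CPM in LKO, both higher. Genes that female liver expresses more rose in 4 of 4 tested (summed 4.65 to 8.08 against 1146 to 1396 CPM) and genes that male liver expresses more fell in 5 of 6 (6107 to 6623 against 4317 to 5748 CPM). Of the sex chromosome genes Xist, Ddx3y, Eif2s3y, Kdm5d and Uty, 4 were tested, with 0 higher and 2 lower. All 5 summed to 169 to 186 CPM in WT and 173 to 189 CPM in LKO. Over all genes tested, 23.4% were higher and 21.4% lower at an adjusted p below 0.05. None of the marker genes listed was at 0 in all libraries, and their part in the results below was not tested. In whole liver, fewer cells of a type and less RNA per cell cannot be told apart.

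The sequences on which the binding results turn are shown first. PPARα binds next to RXR at a direct repeat of AGGTCA with 1 base of any kind between the copies, called DR1. Capitals mark the closest match to DR1 found on either strand with at most 3 mismatches. The first pair are the regions named for Apoa4 that gained most PPARα signal in Gps2 LKO liver, and the next is the PPARα region at -163 bp of Apoc3. These are all from the plus strand of mm9. The last is the Apoc2 promoter, 250 bases before its start on the minus strand of GRCm38.p6 from RefSeq, the member promoter with the closest match.
Apoa4 region at -1832 bp, chr9:46046996-46047194: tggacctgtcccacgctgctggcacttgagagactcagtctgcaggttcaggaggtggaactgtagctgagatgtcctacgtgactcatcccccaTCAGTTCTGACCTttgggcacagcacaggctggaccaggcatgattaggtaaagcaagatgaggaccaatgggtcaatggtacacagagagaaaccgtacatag
Apoa4 region at 4394 bp, chr9:46053239-46053403: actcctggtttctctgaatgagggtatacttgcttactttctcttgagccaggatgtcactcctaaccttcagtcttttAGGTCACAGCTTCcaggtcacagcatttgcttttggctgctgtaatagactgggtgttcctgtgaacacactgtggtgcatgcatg
Apoc3 region at -163 bp, chr9:46043786-46043979: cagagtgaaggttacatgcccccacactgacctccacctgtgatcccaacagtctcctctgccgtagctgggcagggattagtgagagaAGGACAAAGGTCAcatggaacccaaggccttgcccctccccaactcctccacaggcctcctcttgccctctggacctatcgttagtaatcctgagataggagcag
Apoc2 promoter, chr7:19677942-19678191: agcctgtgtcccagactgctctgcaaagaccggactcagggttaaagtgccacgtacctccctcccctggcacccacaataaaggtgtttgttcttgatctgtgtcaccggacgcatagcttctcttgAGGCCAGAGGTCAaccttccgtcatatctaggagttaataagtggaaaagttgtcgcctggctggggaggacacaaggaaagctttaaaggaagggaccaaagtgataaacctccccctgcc

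The Apoc3 region came within 1 mismatch of DR1, which 3.20% of PPARα regions of that width did. The match in the Apoa4 region at -1832 bp lay on the minus strand with 3 mismatches, a level that 41.6% of regions of its width reached, and the match at 4394 bp also had 3, reached by 39.0%. RefSeq promoters of 250 bases were found for 8 of the 10 members, in 12 entries, of which 6 held DR1 within 3 mismatches and 2 held AGGTCA, set beside 21.3% and 14.0% of all 32851 promoters. The Apoc2 promoter matched with 1 mismatch, and the promoters of Apoa4, Apoa5 and Apob held no match. A match is a description of letters, not a bound site. No entry was found for Apoc1 and Apoc3. The cAMP response element TGACGTCA, with 1 mismatch allowed, was in 0 of the 12 entries and in 10.6% of all promoters.

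RNA of most apolipoprotein genes was higher in Gps2 LKO liver. At an adjusted p below 0.05, 8 of the 10 members rose and 1, Apob, fell, where 44.8% of the 12220 genes tested were called, 23.4% as higher and 21.4% as lower. The median of the members was 0.74 on the log2 scale, against 0.03 over all genes. Apoa4 changed most, 19.6-fold, while the other risers moved by a factor of 1.42 to 2.02. With the length trend taken out, 7 members were higher and 1 was lower, where 21.7% of all genes were higher and 22% lower, and the members' median was 0.40.

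Apoa4, a lipid-binding protein of chylomicrons and high-density lipoprotein, was read at 235, 222, 222 and 234 CPM in WT and at 4836, 3678, 4594 and 4752 CPM in LKO liver. The groups did not come near each other, and LKO replicate 2 was the lowest of the LKO libraries. The fold change was 19.6 (log2 4.29, SE 0.09, n = 4 against 4, edgeR adjusted p = 3.55e-13), and the fold was 17.3 once the length trend was taken out. Among 12220 genes Apoa4 ranked 20th by log2 fold change. The gene lies at chr9:46240844-46243458 on the plus strand of GRCm38, with 1666 bases of exon, and no exon base of it was shared with another row of the table.

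**Figure D1:**
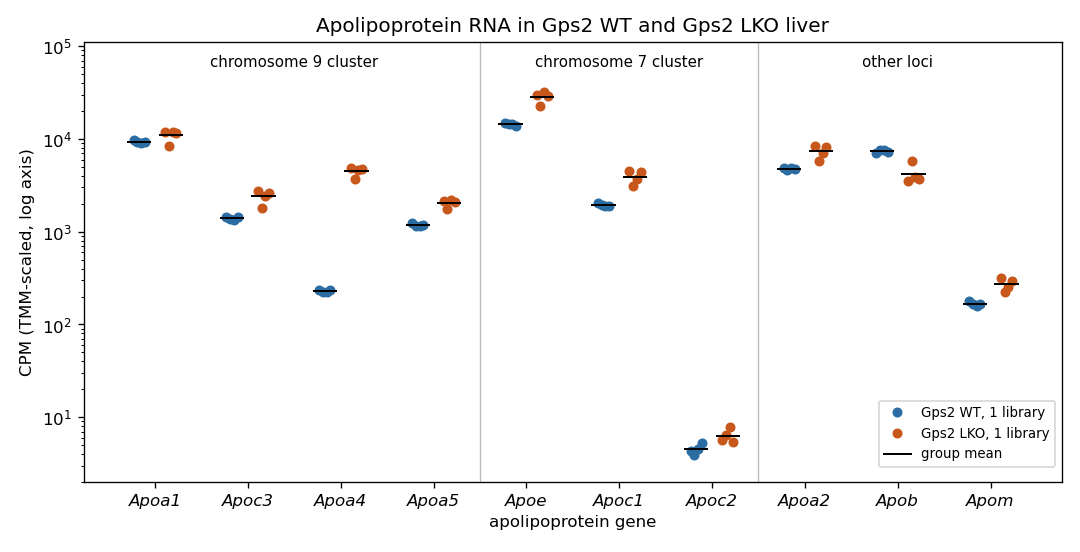
RNA level (CPM scaled by TMM, log axis) of the 10 apolipoprotein genes, with each point 1 of the 4 Gps2 WT or 4 Gps2 LKO libraries and bars for group means. Apoa4 moves from between 222 and 235 CPM in WT to between 3678 and 4836 CPM in LKO, Apob moves down, and the Apoa1 groups overlap.

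The neighbours of Apoa4 in the chromosome 9 cluster changed far less. Apoa5, which promotes hydrolysis of plasma triglyceride by lipoprotein lipase, went from 1178 ± 35.4 to 2045 ± 202 CPM (SD, n = 4 each), 1.74-fold (edgeR adjusted p = 1.28e-06). Apoc3, an inhibitor of that lipase, went from 1396 ± 54.5 to 2401 ± 409 CPM, 1.72-fold (edgeR adjusted p = 4.61e-05). In both the groups were apart. Apoa1, the main protein of high-density lipoprotein, was at 9759, 9204, 9144 and 9219 CPM in WT and at 11819, 8435, 11887 and 11581 CPM in LKO. LKO replicate 2 lay below all WT libraries and the other 3 LKO libraries lay above them, so the groups overlapped. The log2 difference of 0.23 (SE 0.09) had an edgeR adjusted p of 0.0581, passed the threshold at 0.0227 with upper quartile scaling, and turned to -0.05 once the length trend was taken out.

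In the chromosome 7 cluster Apoe and Apoc1 rose together. Apoe, the receptor ligand, was read at 14936, 14407, 14594 and 13890 CPM in WT and at 29583, 22884, 32099 and 28932 CPM in LKO, a 1.96-fold difference (log2 0.97, SE 0.09, edgeR adjusted p = 1.36e-06). It held more reads than any other member in either genotype. Apoc1, which hinders uptake of particles, went from 1937 ± 67.0 to 3913 ± 673 CPM (2.02-fold, edgeR adjusted p = 3.72e-06). With the length trend removed the log2 differences were 0.78 for Apoe and 0.63 for Apoc1, both still past the threshold.

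Apoc2, the activator of lipoprotein lipase, was the member with the fewest reads, 66 to 126 per library. It stood at 4.34, 3.92, 4.54 and 5.22 CPM in WT and at 5.75, 6.41, 7.80 and 5.43 CPM in LKO, a log2 difference of 0.51 (SE 0.14, edgeR adjusted p = 0.0105). With the length trend removed the difference was 0.12 with an adjusted p of 0.584, and the call was lost. The Apoc2 row covered only 325 bases of exon in 3 pieces. A row for the read-through transcript Apoc4-apoc2, chosen after its values were seen, covered 488 other bases beside it and was read at 129, 122, 121 and 123 CPM in WT and at 270, 188, 217 and 257 CPM in LKO (1.89-fold, edgeR adjusted p = 6.74e-06, log2 0.51 with the length trend removed). How the reads of Apoc2 were divided between these rows is not given in the sources used here, so its level is uncertain.

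Apoa2 and Apom, the other members tied to high-density lipoprotein, lie on chromosomes 1 and 17 and rose by similar amounts. Apoa2 went from 4801 ± 83.8 to 7359 ± 1217 CPM (1.53-fold, edgeR adjusted p = 2.13e-04), and 143 of its 936 exon bases are shared with Tomm40l on the opposite strand, which averaged 10.8 CPM in WT and 9.81 CPM in LKO. Apom, which carries sphingosine-1-phosphate, went from 168 ± 7.83 to 272 ± 41.1 CPM (1.62-fold, edgeR adjusted p = 6.21e-05). Both stayed past the threshold with the length trend removed, at log2 differences of 0.32 and 0.36.

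Apob was the one member that fell. It was read at 7148, 7647, 7664 and 7233 CPM in WT and at 3513, 5766, 3890 and 3693 CPM in LKO. No LKO library reached the lowest WT value, and LKO replicate 2 was far above the other 3. The level was 0.568-fold (log2 -0.82, SE 0.12, edgeR adjusted p = 1.83e-04), or 0.765-fold (log2 -0.39) with the length trend removed. Apob has the longest exons of the members, 13909 bases, and lies at chr12:7977677-8016839 on the plus strand of GRCm38.

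**Figure D2:**
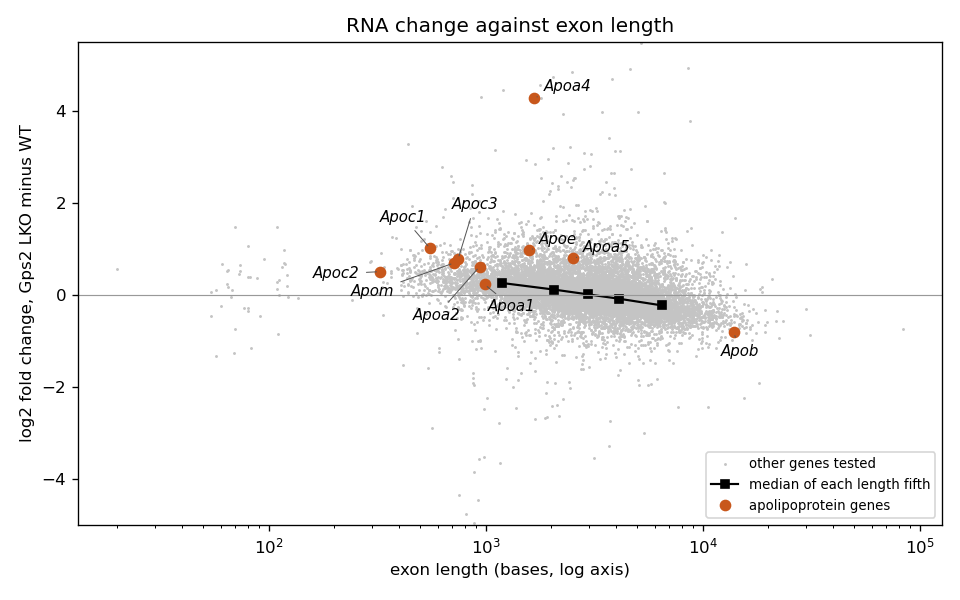
Log2 fold change of RNA (Gps2 LKO minus WT) against exon length in bases (log axis) for all genes tested in grey, the 10 members in orange and the median of each of 5 length bins as squares; 16 genes fall outside the plotted range of -5 to 5.5. The medians run from 0.26 down to -0.23, Apoa4 lies far above them and Apob, the longest member, lies below.

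Per kilobase of exon (RPKM) the members were ordered as follows in WT liver. Apoa1 (9445 RPKM) and Apoe (9115 RPKM) led with overlapping ranges, followed by Apoa2 (5129), Apoc1 (3496), Apoc3 (1872), Apob (534), Apoa5 (466), Apom (234), Apoa4 (137) and Apoc2 (13.9 RPKM), and no other neighbours in that order overlapped. In LKO liver Apoe came first alone at 17890 RPKM and Apoa4 moved from the 9th to the 6th place at 2680 RPKM. There the ranges of Apoa1 and Apoa2, Apoa2 and Apoc1, Apoc3 and Apoa4, and Apom and Apob overlapped. Together the members took 4.36% ± 0.0767 of all reads in WT and 5.99% ± 0.516 in LKO libraries (SD, n = 4 each).

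Genes of the wider pathway were called in both directions, where 23.4% of all genes tested rose and 21.4% fell. Of 10 other apolipoprotein genes tested, 6 rose and none fell in the edgeR test, led by Apoc4 in the chromosome 7 cluster (272 to 637 CPM, log2 1.23), with a list median of 0.34. With the length trend taken out, 5 of them rose and 1 fell, where 21.7% of all genes rose and 22% fell. Of 34 genes for particle assembly, lipases, transporters and receptors, 16 rose and 10 fell, with a list median of 0.11. With the length trend taken out, 11 of these rose and 10 fell. Vldlr, a receptor for triglyceride-rich particles, went from 0.793 to 10.9 CPM (log2 3.78), Angptl8, a regulator of lipoprotein lipase, from 35.2 to 185 CPM (2.40), and Pltp, which transfers phospholipid between particles, from 40.4 to 132 CPM (1.71). Sort1, a sorting receptor for apoB, fell from 40.4 to 17.5 CPM (-1.20). Mttp, which loads lipid onto apoB, did not pass the test (441 against 446 CPM), though with the length trend taken out it was higher by 0.11 (edgeR adjusted p = 0.0233) with overlapping groups.

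Among 26 regulators of apolipoprotein genes 7 rose and 8 fell, with a list median of -0.03, where 23.4% of all genes rose and 21.4% fell. With the length trend taken out, 8 regulators rose and 7 fell, where 21.7% of all genes rose and 22% fell. Ppara itself was at 335 ± 14.7 CPM in WT and 255.7 ± 62.6 CPM in LKO, with overlapping groups (log2 -0.39, edgeR adjusted p = 0.0205, or 0.0570 once the length trend was taken out). Of 27 genes next to the members, 6 rose and 5 fell, near the shares of 23.4% and 21.4% of all genes, with a list median of 0.04. With the length trend taken out, 3 of these neighbours rose and 5 fell. Tagln, a smooth muscle actin-binding protein gene near the chromosome 9 cluster, went from 3.86 to 7.88 CPM (log2 1.02, edgeR adjusted p = 9.30e-05, or 0.84 with the length trend taken out). Sik3, beside the same cluster, fell by 0.27 on the log2 scale, a call that was lost with the length trend taken out (-0.07, adjusted p = 0.297), and Zpr1, next to Apoa5, differed by 0.05 and did not pass the test.

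The 5 genes whose 8 library values ran closest to those of Apoa4, by the root mean square difference of log2 ratios to the WT mean, were Cyp2c40 (0.16), Cyp2c69 (0.21), Cyp4a14 (0.35), Acot3 (0.43) and Hao2 (0.46). Cyp4a14, a fatty acid omega-hydroxylase, went from 4.18 to 120 CPM. The likeness rests on a large difference between the same groups of 4 libraries. Genes compared had a mean of at least 10 CPM over the 8 libraries. In WT all 5 were below that, at means of 0.195 (Hao2) to 8.22 CPM (Cyp2c40), so they entered through their LKO levels. Hao2 rose by 6.60 on the log2 scale against 4.29 for Apoa4. Its closeness depends on the 0.5 added to CPM in this measure.

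PPARα binding near the apolipoprotein genes was compared next in Gps2 LKO liver. The 3 WT libraries of this comparison differed by less than the sampling noise (chi-square per degree of freedom 0.92 to 0.94, where other pairs ranged from 1.17 to 14.7) and were summed and counted as 1 sample, assumed to vary like the LKO libraries. The whole table shifted upwards with total tags as the scale, by a median of 0.62 (log2) over 102519 regions. Of 96 member regions 18 rose and none fell, where 21.5% of all regions rose and 0.147% fell. Only 31 of the 96 lay above the table's median. The count of 18 fell to 10 without WT replicate 3 or LKO replicate 2, where 14.9% and 15.3% of all regions were then called.

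The Apoa4 region at -1832 bp, whose sequence is printed above, held 27.8, 37.0 and 28.2 tags per 1e7 tags of the library in WT and 114, 95.7 and 116 in LKO. All LKO libraries were above all WT libraries, as in 46.7% of all regions and 53 of the 96 member regions. The fold was 3.45 (log2 1.79, SE 0.27, edgeR adjusted p = 4.48e-08), which was 1.17 above the table's median. The region at 4394 bp, beyond the end of the gene, held 3.80, 4.75 and 5.64 tags per 1e7 in WT and 39.1, 28.4 and 26.97 in LKO, a 6.37-fold difference (log2 2.67, SE 0.42, edgeR adjusted p = 1.61e-07, 2.06 above the median). At the Apoa4 promoter itself the region at -177 bp held 24.0, 28.5 and 24.8 in WT and 34.5, 37.9 and 35.8 in LKO (log2 0.47, SE 0.29, edgeR adjusted p = 0.225), without overlap but below the shift of the table. The other 3 regions named for Apoa4 did not pass the test, with log2 differences of 0.63, 0.20 and -0.92.

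**Figure D3:**
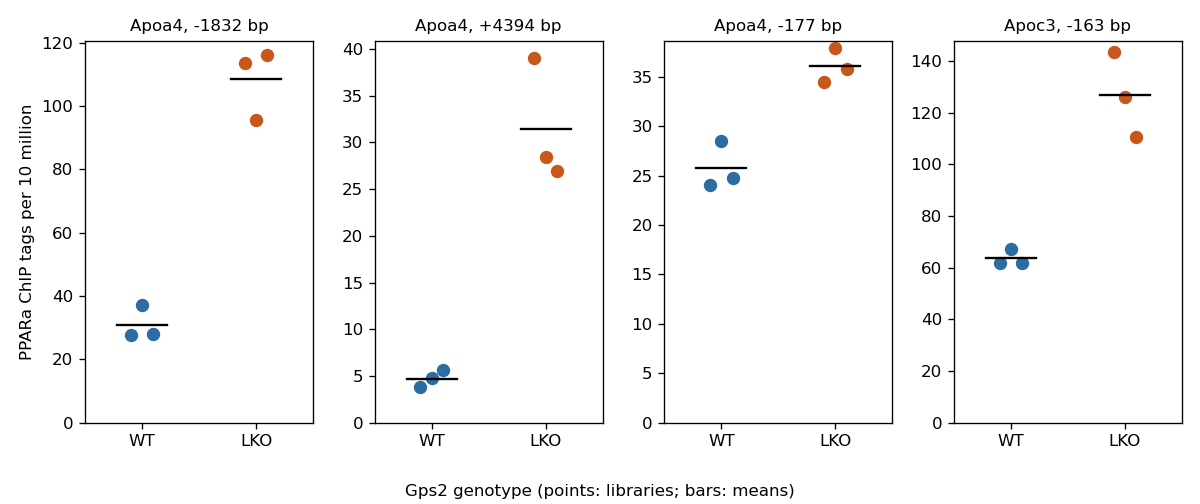
PPARα ChIP tags per 1e7 in each Gps2 WT and LKO library (points) with group means (bars), on axes that start at 0. The panels show 3 regions of Apoa4 and the region at -163 bp of Apoc3. The LKO libraries lie above the WT libraries in all 4 panels, by 3.45-fold at -1832 bp, 6.37-fold at 4394 bp and 1.39-fold at -177 bp of Apoa4 and by 1.96-fold at -163 bp of Apoc3. Of all regions 46.7% had every LKO library above every WT library.

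The Apoc3 promoter region at -163 bp, which came within 1 mismatch of DR1, held 62.0, 67.4 and 62.0 tags per 1e7 in WT and 144, 126 and 111 in LKO (1.96-fold, log2 0.97, SE 0.25, edgeR adjusted p = 0.00305, 0.35 above the median). It was the only region within 1000 bp of a member's start that passed the test. The other Apoc3 region there, at -57 bp, differed by 0.11 on the log2 scale and did not pass. The promoter regions of Apoa2, Apoa5, Apob, Apoc1, Apoc2, Apoe and Apom differed by 0.06 to 0.54 on the log2 scale, all below the median shift. That of Apoc2, at -161 bp, also came within 1 mismatch of DR1 and differed by 0.53. Apoa1 had no region within 1000 bp of its start. Of the other 15 called regions, 8 were named for Apoa1, 6 for Apob and 1 for Apoa5. Naming follows the nearest start site: 26 of the 29 regions named for Apoa1 lay inside Sik3. Among those of Apob, the region at 69596 bp had 6.33, 10.4 and 10.1 tags per 1e7 in WT and 31.0, 32.2 and 28.1 in LKO (log2 1.71, SE 0.37, edgeR adjusted p = 2.48e-04).

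Summed over all regions of a gene, PPARα tags passed the test as higher for 8 of the 10 members, where 58.1% of all genes did so and 0.198% fell, and the median gene of the table rose by 0.56. Apoa4 had 88.6, 103 and 86.8 tags per 1e7 in WT and 222, 197 and 212 in LKO (2.25-fold, log2 1.17, SE 0.19, edgeR adjusted p = 4.34e-08, 0.61 above the median). Of the other members only Apob, at 0.57, lay above the median, by 0.01. Apoa1 (0.53), Apoc3 (0.53), Apom (0.54), Apoa5 (0.48), Apoc1 (0.40), Apoe (0.36), Apoc2 (0.33) and Apoa2 (0.22) lay below it, and the last 2 did not pass the test. When libraries were scaled by TMM, which sets the bulk of regions equal, 2 member regions remained called, those of Apoa4 at -1832 bp (log2 1.18, adjusted p = 3.33e-04) and 4394 bp (log2 2.07, adjusted p = 7.08e-04), and 1 summed gene, Apoa4 (log2 0.61, adjusted p = 0.0148). DESeq2 with its own size factors called 0 of either.

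**Figure D4:**
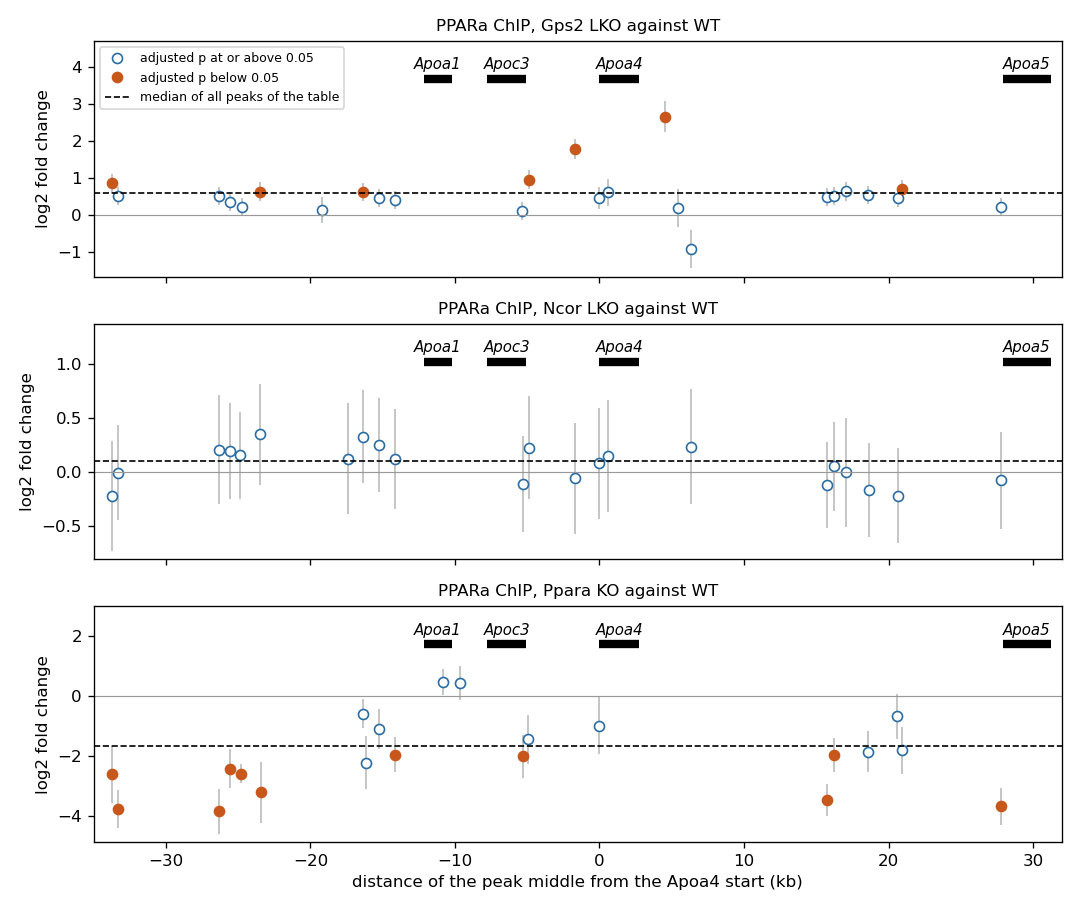
Log2 fold change of PPARα ChIP tags in each region of the chromosome 9 cluster against its distance from the Apoa4 start (kb), for Gps2 LKO, Ncor LKO and Ppara KO, with error bars of 1 SE, filled points at an adjusted p below 0.05, dashed lines at the median of each table and bars for the genes. In Gps2 LKO liver the regions at -1832 and 4394 bp of Apoa4 rise above the dashed line at 0.62, in Ncor LKO no region is called, and in Ppara KO most are below 0.

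Ppara KO liver gave the level that the PPARα antibody leaves without its antigen. With 2 libraries a group, 27 of 64 member regions fell, where 27.6% of all regions did and 0.0174% rose, and the table's median was -1.68. The smallest p was that of the Apoa1-named region at -12750 bp, inside Sik3 at chr9:46023822-46024105, with 33.3 and 36.7 tags per 1e7 in WT and 6.18 and 5.13 in KO (log2 -2.60, SE 0.31, edgeR adjusted p = 2.83e-05). The promoter regions of Apoa5 (12.7 and 16.8 against 0.687 and 1.47), Apoa2 (10.6 and 6.88 against 0.687 and 1.47) and Apoc2 (7.08 and 19.9 against 1.37 and 3.66) also fell, by 3.68, 2.94 and 2.38 on the log2 scale (edgeR adjusted p = 4.13e-04, 0.0129 and 0.0114). Those of Apoc3 and Apob fell by 2.02 and 2.01, while Apoc1 (-1.21) and Apom (0.26) did not pass the test.

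Apoa4 held few PPARα tags in the WT group of the Ppara line. Its single region, at -211 bp, held 4.95 and 0.765 tags per 1e7 in WT and 2.06 and 0.733 in KO (log2 -1.005, edgeR adjusted p = 0.434), and no region at -1832 or 4394 bp was named for it. Summed per gene, 8 of 10 members fell, where 56.8% of all genes did so, 0.0592% rose and the median was -1.71, from -1.48 for Apoc1 to -3.43 for Apoa2, and Apoa4 and Apom did not pass the test. The libraries of the Ppara line had 0.581% to 2.44% of their tags in regions, against 19.2% to 32.1% in the Gps2 line, so levels were not compared between the lines. When either WT library was left out, so that 1 was assumed to vary like the KO libraries, 0 member regions were called, and TMM scaling, under which the bulk of regions is set equal, called 6.

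In Ncor LKO liver PPARα binding at the members did not pass the test: 0 of 84 regions were called by edgeR, and TMM scaling called 1. Of all regions 0.151% rose and 0.0453% fell. The region at -1830 bp of Apoa4 held 17.3, 24.6 and 11.4 tags per 1e7 in WT and 10.8, 17.1 and 23.1 in LKO, a log2 difference of -0.06 (SE 0.51). The groups overlapped there and at all 84 regions, where 5.99% of all regions had groups apart as higher and 2.01% as lower. The promoter regions of 9 members differed by -0.11 to 0.23. With an SE of that size small changes were not detectable, and the difference from Gps2 LKO was not tested, since the lines were in separate tables.

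In the Gps2 line GPS2 itself had regions within 1000 bp of the start of 8 members. In its 1 WT library the promoter regions of Apoc1, Apoa2 and Apoa5 held 55, 53 and 52 tags, those of Apoc3, Apoc2, Apob and Apom 42, 38, 31 and 21, and that of Apoa4 held 16 tags, or 10.3 per 1e7 (95% Poisson interval 5.90 to 16.8, counting error only). The LKO library had 0 to 2 tags in each. At Apoa4 it had 0, and the level was at least 5.09-fold lower against a floor of 3 counts in that library. No GPS2 region named for Apoa4 lay at -1832 or 4394 bp in any of the GPS2 tables.

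In Ncor LKO liver GPS2 tags were lower over the whole table, by a median of -1.12, and by a median of -1.46 over 66 member regions. Of those, 0 passed the edgeR test, where 0.0338% of all regions fell, and 0 passed with DESeq2. In 28 of the 66 no LKO library reached the lowest WT library, which 26.6% of all regions showed. WT replicate 3 was low throughout: the Apoa5 promoter held 57.5, 57.4 and 18.2 tags per 1e7 in WT and 8.38, 13.6 and 11.4 in LKO (log2 -1.99, edgeR adjusted p = 0.0761), and the Apoa2 promoter 56.9, 46.6 and 17.7 against 11.8, 11.2 and 12.5 (log2 -1.76, adjusted p = 0.0798). Without that library 54 of the 66 regions were called, where 59.1% of all regions then fell. The Apoa4 promoter held 14.9, 18.3 and 4.29 in WT and 6.41, 7.09 and 3.64 in LKO, with overlap. Apoe had a GPS2 region here, at -51 bp (mean 17.5 in WT and 8.36 in LKO tags per 1e7), and the promoter regions of 9 members differed by -1.99 to -1.03 on the log2 scale.

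In Ppara KO liver GPS2 also shifted down over the table, by a median of -0.93 and by -0.80 over 34 member regions. Of these, 0 were called by edgeR and by DESeq2, where 0.273% of all regions fell by edgeR. In this table Apoc1, Apoc3 and Apom had no region. The Apoa2 promoter held a mean of 34.3 tags per 1e7 in WT and 20.5 in KO (log2 -0.73, edgeR adjusted p = 0.321). Among the other promoter regions the log2 difference was -1.70 at Apoa4, -0.68 at Apoa5, -0.66 at Apob and -0.14 at both Apoc2 and Apoe, and none passed the test.

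NCOR binding at the members did not differ detectably in Gps2 LKO liver. Of 67 regions 0 were called by edgeR and by DESeq2, and of all regions 0.0124% rose and 0.00495% fell by edgeR. Apoa4 had 3 regions, and that at 1125 bp, in an intron, held 19.4, 18.1 and 10.4 tags per 1e7 in WT and 33.8, 32.4 and 21.7 in LKO. The groups did not overlap there, and the log2 difference of 0.87 (SE 0.48) had an adjusted p of 1. The promoter regions of 7 members, Apoa4 among them at -0.04, differed by -0.59 to -0.04, all with overlap.

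In Ppara KO liver NCOR fell at 3 of 98 member regions, where 2.51% of all regions fell, 0.136% rose and the median of the table was -0.32. The region at -3355 bp of Apoe held 26.8, 21.5 and 27.8 tags per 1e7 in WT and 13.9, 6.06 and 7.12 in KO (log2 -1.51, SE 0.38, edgeR adjusted p = 0.00583). The region at 3472 bp of Apoa2 fell by 1.21 (23.6, 44.7 and 38.8 against 16.4, 20.2 and 9.25), and that at -89734 bp of Apoa1, inside Sik3, by 0.98 (42.3, 46.4 and 52.2 against 22.1, 28.9 and 19.9). With 1 library left out at a time 0 to 2 of the 3 were called, the fewest without WT replicate 3, and DESeq2 called 0. Of all regions 1.05% to 2.48% were called with 1 library left out. NCOR had a region at -1810 bp of Apoa4, over the one where PPARα rose in Gps2 LKO, with 43.1, 24.1 and 59.8 tags per 1e7 in WT and 74.4, 51.8 and 40.6 in KO (log2 0.38, edgeR adjusted p = 0.471), and the groups overlapped. The promoter regions of 8 members differed by -0.48 to 0.26 and none passed the test.

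RNA polymerase II was profiled in 1 Gps2 WT and 1 Gps2 LKO library, so the values compare these libraries and have no replicate check. Of 31 member regions 4 held at least 2-fold more tags in LKO and 1 at least 2-fold fewer, where 7.72% and 5.94% of all regions did. At the Apoa4 start (234 bp) there were 94 tags in WT and 201 in LKO, a ratio of 2.10 (95% interval 1.63 to 2.71, counting error only). Among other regions, the interval also lay above 1 at the Apom start (53 and 79 tags, ratio 1.46, 1.02 to 2.11) and the Apoa5-named region at -10756 bp (117 and 185, 1.55, 1.22 to 1.97). How many of all regions had such an interval was not counted. The median ratio was 1.17 over the member regions and 1.06 over all regions. The starts of Apoe (389 and 377, ratio 0.950), Apoc1 (291 and 276, 0.930), Apoa1 (290 and 324, 1.10), Apoc3 (246 and 266, 1.06), Apoa2 (314 and 328, 1.02), Apoa5 (262 and 313, 1.17), Apoc2 (113 and 122, 1.06) and Apob (287 and 292, 0.997) had intervals that held 1. Apoa4 was the one member whose start region reached a 2-fold ratio.

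Histone marks lay over these genes in broad domains that were named for 1 gene each. H3K4me3, a mark of active promoters, rose in 3 of 12 member domains in Gps2 LKO liver, where 0.798% of all domains rose and 0.118% fell. The domain named for Apoa1, chr9:46000981-46057606, covers Apoa1, Apoc3 and Apoa4 and held 2201 and 1916 tags per 1e7 in WT and 3052 and 2679 in LKO (log2 0.48, SE 0.08, edgeR adjusted p = 0.0115). The Apoa2 domain rose by 0.37 (1867 and 1757 against 2360 and 2335, adjusted p = 0.0114), and the domain at -10527 bp of Apoa5 by 0.83 (117 and 98.4 against 188 and 195, adjusted p = 0.0254). None of the 3 was called when all peaks of the table shared with H3K27ac were tested, or without the second WT library.

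H3K27ac, a mark of active enhancers and promoters, was called by edgeR at 0 of 29 member domains in Gps2 LKO liver, where 1.21% of all domains rose and 0.212% fell. The Apoa2 domain held 2386 and 2275 tags per 1e7 in WT and 2845 and 3159 in LKO (log2 0.37, edgeR adjusted p = 0.101). In 13 of the 29 both LKO libraries lay above both WT libraries, which 30.1% of all domains showed. In Ncor LKO liver H3K27ac fell at 1 of 41 domains, 112531 bp from Apob (125, 121 and 79.6 against 50.4, 71.0 and 49.2 tags per 1e7, log2 -0.94, edgeR adjusted p = 0.0391), where 0.801% of all domains fell and 2.32% rose. That call was lost without WT replicate 1, WT replicate 2 or LKO replicate 1. In Smrt LKO liver edgeR called 0 of 41, and 0 domains were called in the whole table. The Ncor effect minus the Smrt effect was called at 0 member domains, where 0.33% of all domains differed upwards and 0.0959% downwards, with a smallest adjusted p of 0.268 at 1684 bp of Apoa5.

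No domain in the Gps2 table was named for Apoe, Apoc1, Apoc2 or Apoc3. A domain named for Apoc4-apoc2, chr7:20248818-20290998, covers the chromosome 7 cluster and held 4413 and 4048 H3K4me3 tags per 1e7 in WT and 5039 and 4799 in LKO (log2 0.22, edgeR adjusted p = 0.265). For H3K27ac it held 5463 and 5327 in WT and 6039 and 6105 in LKO (log2 0.17, adjusted p = 0.398).

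Summed per gene, the other tables gave few calls. H3K4me3 rose in Gps2 LKO liver for 3 of the 5 members with a domain, where 0.983% of genes rose and 0.099% fell. edgeR called 0 members in each of the others: 5 members with H3K27ac in Gps2 LKO (1.63% of genes rose, 0.207% fell), 6 in Ncor LKO (2% and 0.997%) and 6 in Smrt LKO (0% and 0%). For GPS2 it called 0 of 10 in Ncor LKO (0.187% fell) and 0 of 7 in Ppara KO (0.439% fell), although the members' medians were -1.53 and -0.85 against -1.09 and -0.89 over all genes. For NCOR it called 0 of 10 in Gps2 LKO (0.0236% rose, 0.00589% fell) and 0 of 10 in Ppara KO (0.185% rose, 5.83% fell), and for PPARα 0 of 10 in Ncor LKO (0.0806% rose, 0.023% fell). DESeq2 called 1 member for H3K27ac in Gps2 LKO and 1 for NCOR in Ppara KO.

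**Figure D5:**
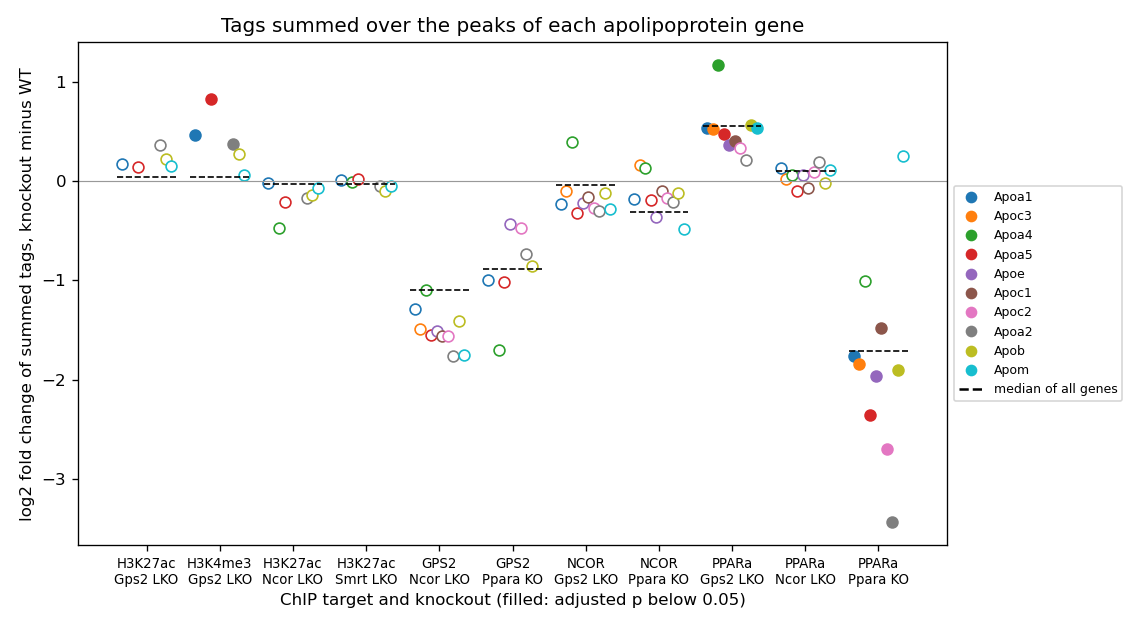
Log2 fold change (knockout minus WT) of ChIP tags summed over all regions of each member in the 11 replicated ChIP comparisons, filled where the adjusted p is below 0.05, with dashed lines at the median of all genes. In PPARα of Gps2 LKO liver Apoa4 stands at 1.17, above the dashed line at 0.56 near which the other members lie, and in PPARα of Ppara KO liver the members run from -3.43 to 0.26.

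Summed over whole clusters, the chromosome 9 genes Apoa1, Apoc3, Apoa4 and Apoa5 held 1910, 2196 and 1952 PPARα tags per 1e7 in WT and 3184, 2978 and 2820 in Gps2 LKO liver, a ratio of 1.48. The chromosome 7 genes Apoe, Apoc1 and Apoc2 held 791, 900 and 814 against 1152, 1101 and 1007, a ratio of 1.302. Both pairs of groups were apart, at log2 ratios of 0.57 and 0.38 where the median gene of the table stood at 0.56. No permutation test was made, since 1 sample against 3 cannot pass the threshold. The same sums in the other comparisons were set to an exact two-sided permutation test, where 3 against 3 libraries cannot go below 0.1. They gave ratios of 1.04 and 1.02 for PPARα in Ncor LKO (exact permutation p = 0.9 for both), 0.379 and 0.343 for GPS2 in Ncor LKO (0.1 for both), 0.495 and 0.734 for GPS2 in Ppara KO (0.1 for both), 0.860 and 0.858 for NCOR in Gps2 LKO (0.6 for both) and 0.913 and 0.886 for NCOR in Ppara KO (0.4 and 0.6). With 2 libraries a group, PPARα in Ppara KO gave 0.271 and 0.234 at the smallest p that the design allows. On the log2 scale the GPS2 ratios were -1.40 and -1.54 in Ncor LKO, where the median gene stood at -1.09, and -1.02 and -0.45 in Ppara KO, against -0.89. Those of PPARα in Ppara KO were -1.88 and -2.09, against -1.71. The chromosome 9 sums of H3K4me3 and H3K27ac in Gps2 LKO had ratios of 1.402 and 1.12, and those of H3K27ac in Ncor LKO and Smrt LKO had 0.953 and 1.01.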

How the data were processed

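Of 74 samples, 8 RNA and 64 ChIP libraries were analysed, and 2 input DNA libraries were not analysed here. Per the study's methods, RNA was selected by polyA, livers for ChIP of histone marks were fixed in formaldehyde alone and those for factors first in DSG, reads were aligned to mm9 with HISAT2 (RNA) and Bowtie (ChIP), and HOMER found peaks. The submitters' processing notes also name Bowtie2, featureCounts, SAMtools, GRCm38 and mm10. The RNA table holds raw read counts per gene over exons that the authors deposited, with GRCm38 coordinates, and its exon lengths are a deposited column of bases. The ChIP tables hold raw tag counts per peak with mm9 coordinates, and each deposited count column names its library's total tags. The histone peak lists carry a score that the authors deposited as a constant, so only their positions were used. The authors' columns of fold changes, likelihood ratios, p-values and mean levels were not used. The strand setting of the counting is not given in the sources used here.

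Counts were tested with edgeR 4.0.16 (R 4.3.3) by the quasi-likelihood test with Benjamini-Hochberg adjustment over all genes or peaks tested, at an adjusted p below 0.05. RNA was scaled by TMM after edgeR's filter on low counts, and ChIP by total tags over peaks with at least 1 tag. Histone peaks of the Gps2 line were tested where at least 2 of the mark's peak lists held them. CPM and RPKM were computed from the counts. The length trend was removed with a gene-wise offset. Comparisons with 1 library a group carry exact 95% intervals and no test, and intervals and floors cover counting error only. Levels in the text are means ± SD. DESeq2 1.42.0 was one of the alternatives, beside other scalings, filters, a replicate block and leaving out each library. In simulated RNA counts the edgeR step recovered 200 of 200 changed genes among 12176, and in simulated PPARα counts of the Gps2 line 93% of 200 changed peaks among 102519. False calls made up 3.38% and 1.59% of the calls there, 7.11% for PPARα of the Ncor line and 7.41% for H3K4me3. The planted changes were of 2 on the log2 scale, only in features above a count floor, without an outlier library or a table-wide shift. How many smaller changes would be found was not simulated.

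The rule for named values took all members in every comparison, with the peak of most tags within 1000 bp of the start and up to 3 further called peaks with the smallest p, no overlap and a mean of at least 20 tags. Regions of Apoa4 and regions set side by side across tables were added after their values were seen. Genes of the lists were named at a log2 fold change of at least 1 or beside a cluster, Gps2 and Ppara as checks, and Mttp after its value was seen. The 5 genes most like Apoa4 were taken among those of at least 10 CPM on average, with 0.5 added to CPM. Members and lists were chosen with earlier results of these data known.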

Additional observations from a re-analysis of the deposited data

Results flagged for a closer look

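Among 20 groups of 4 RNA libraries tested, 1 per member and genotype, 3 held a library far from the others, where chance gives about 1 in 20 groups. Apoa1 was at 9759 CPM in WT replicate 1, with a gap to the nearest library of 0.878 of the group's range, and at 8435 CPM in LKO replicate 2, with a gap of 0.911. Apob was at 5766 CPM in LKO replicate 2, with a gap of 0.833. LKO replicate 2 differed from the other LKO libraries over all genes by a chi-square per degree of freedom of 19.8 to 29.1, where the other LKO pairs gave 1.53 to 9.87 and WT pairs 1.69 to 2.53.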

How the results depend on the processing

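The RNA calls held best: 9 to 10 members were called when any 1 library was left out, and no filter on low counts changed a call. Of all genes 35.4% to 56.6% were called with 1 library left out. With the length trend removed the Apoa1 difference reversed to -0.053. Upper quartile scaling (adjusted p = 0.0227) and the replicate block (0.0314) brought Apoa1 past edgeR's threshold. Leaving out 1 library also did so in 1 case (edgeR adjusted p = 6.84e-07). With 1 library left out at a time the Apoa1 log2 difference ran from 0.19 to 0.31.

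ChIP calls depended on the scale. For PPARα in Gps2 LKO liver, 18 member regions became 2 with TMM scaling, 0 with DESeq2 and 45 with the 3 WT libraries counted separately. Of all regions 0.973%, 0.0387% and 36.9% were then called. The 8 genes became 1 with TMM and 0 with DESeq2, where 3.1% and 0.677% of all genes were called. TMM and DESeq2 scaling take out about the table's median of 0.56, so members below that median turn negative by construction. The summed tags reversed for Apoa1 (-0.030 and -0.026), Apoa5 (-0.090 and -0.085), Apoc1 (-0.15 and -0.15), Apoc3 (-0.038 and -0.028), Apoe (-0.20 and -0.20) and Apom (-0.012 and -0.027). For PPARα in Ppara KO liver, 27 regions became 6 with TMM, 2 with DESeq2, 10 with a mean of at least 10 tags and 0 with the block. Of all regions tested in each setting 3.6%, 13.1%, 96.7% and 0% were called. The 8 genes became 1 with TMM and 0 with DESeq2, where 6.34% and 3.59% of all genes were called. Apoc1 was at 0.22 and 0.30 there, and Apoa1 at 0.015 with DESeq2. Elsewhere the counts moved too, given here with the share of all regions or genes called in brackets. GPS2 in Ncor LKO went from 0 regions to 14 with a mean of at least 10 tags (15.8%) and 27 with the block (18.7%). It went from 0 to 5 genes with the block (19.2%). H3K27ac in Gps2 LKO went from 0 to 2 with the block (5.23%), 1 over all peaks of the shared table (1.26%) and 1 gene with DESeq2 (2.49%). H3K4me3 went from 3 to 0 over all peaks of that table (0.0374%). NCOR in Ppara KO went from 3 to 0 with DESeq2 (0.686%) and 1 with the block (1.71%), and from 0 to 1 gene with TMM (5.05%) and with DESeq2 (4.31%). PPARα in Ncor LKO went from 0 to 1 with TMM (1.74%). The cause was not tested.

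With 1 library left out at a time, the regions called ranged from 0 to 54 for GPS2 in Ncor LKO (54 without WT replicate 3), 10 to 25 for PPARα in Gps2 LKO, 0 to 22 in Ppara KO and 0 to 1 in Ncor LKO, 0 to 2 for NCOR in Ppara KO, 0 to 3 for H3K4me3, and 0 to 1 for H3K27ac in Gps2 LKO and in Ncor LKO. Genes called ranged from 0 to 10 for GPS2 in Ncor LKO (0% to 74.6% of all genes) and from 4 to 9 for PPARα in Gps2 LKO (45.5% to 60.9%). Log2 ratios of cluster sums crossed 0 for H3K27ac in Ncor LKO (-0.14 to 0.0032) and Smrt LKO (-0.037 to 0.072), for NCOR in Gps2 LKO (-0.48 to 0.043 on chromosome 9 and -0.50 to 0.034 on chromosome 7) and for PPARα in Ncor LKO (-0.22 to 0.23 and -0.22 to 0.18). Where 1 library was left in a group, it was assumed to vary like the other group. The libraries share only a number between groups: same-numbered libraries correlated by -0.27 to 0.34 over all comparisons (0.03 to 0.14 for RNA), and with 3 or more pairs none had every pair above 0.1. Beside the counts given above, the block lost 8 calls of single named regions, all in PPARα or NCOR of Ppara KO liver, and gained that of Apoa1 RNA. It could not be fitted for PPARα in Gps2 LKO.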
